A study of Homo sapiens with 6 samples.

Results

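HOX genes were followed in SiHa, a cell line long grown from a squamous cancer of the human cervix. A row of the deposited expression table was taken as a HOX row if any of its gene names was HOXA, HOXB, HOXC or HOXD followed by a number, which gave 32 of the 35544 rows and all 39 HOX gene names. PolyA RNA was sequenced from 3 libraries of cells transfected with a vector plasmid and from 3 libraries of cells given a plasmid of hsa_circ_0005358, a circular RNA, all collected 72 h after transfection. The treatment protocol and the series title spell the name of that RNA with fewer digits, and the spellings were taken to mean the same RNA. Both groups are the same line, and the vector cells went through the same transfection. By its title, the study asked how this circular RNA acts on metastasis and on the mRNA of CDCP1 through the protein PTBP1. The labels do not say whether the 3 libraries of a group are separate cultures. The p-values therefore speak of the spread among libraries, and that spread may be technical.

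HOX genes encode transcription factors that give positional identity along the body axis and bind DNA through the homeodomain, often together with partners of the PBX and MEIS families. They stand in 4 clusters, and genes at the same place in different clusters are paralogs that share a number. Low numbers are expressed towards the head and high numbers towards the tail of the embryo, and the female reproductive tract keeps a graded expression of the HOXA genes with high numbers. Polycomb proteins hold the clusters silent and MLL complexes keep them active.

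By GENCODE 29 on GRCh38, the HOXA cluster lies on chromosome 7 from 27092993 to 27200106 with 11 genes, and the HOXB cluster on chromosome 17 from 48528526 to 48729178 with 10 genes. The HOXC cluster lies on chromosome 12 from 53938765 to 54056030 and the HOXD cluster on chromosome 2 from 176092891 to 176190907, with 9 genes each. The table has no coordinates, so these positions are not from the build of the alignment. Of the 32 rows, 27 held a single HOX gene and 5 joined several HOX genes, 12 in all: HOXA3, HOXA4 and HOXA6, HOXA9 and HOXA10, HOXB3, HOXB4 and HOXB6, HOXD3 and HOXD4, and HOXD10 and HOXD11. All of these but the row of HOXD10 and HOXD11 also carry names of genomic clones. In a joined row the share of each gene is not known.

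HOX paralogs are close in sequence, which bears on how fragments are divided between them. The homeobox, the 60 codons for the homeodomain, was searched by its recognition helix in the coding part of 1 transcript per gene. It was found for 37 of the 39 genes. The search missed it in the transcripts used for HOXB1 and HOXC11, which does not show that these genes lack it. Between genes of the same paralog number its bases were identical at a median of 81.2% (69.4% to 90.6%), and between other genes at 60.6% (47.8% to 91.1%). The most alike pair of all was HOXA6 and HOXA7, of the same cluster but not the same number, at 91.1%. Pairs with HOXB1 or HOXC11 are left out of both medians, so fewer than the 42 pairs of the same number entered. The homeoboxes of HOXB9 and its paralogs HOXC9 and HOXD9 are shown because HOXB9 was the member that passed the test below. They are coding bases of GENCODE 29 transcripts named in the table, 5′ to 3′, and capitals mark each base that differs from HOXB9:
HOXB9: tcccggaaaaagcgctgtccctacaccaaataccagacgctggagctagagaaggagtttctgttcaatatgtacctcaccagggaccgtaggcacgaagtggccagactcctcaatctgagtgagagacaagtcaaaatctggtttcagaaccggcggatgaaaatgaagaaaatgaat
HOXC9: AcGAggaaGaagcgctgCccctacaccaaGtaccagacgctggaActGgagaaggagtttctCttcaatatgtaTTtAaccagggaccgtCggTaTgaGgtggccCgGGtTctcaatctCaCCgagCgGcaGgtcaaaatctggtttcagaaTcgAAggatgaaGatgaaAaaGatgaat
HOXD9: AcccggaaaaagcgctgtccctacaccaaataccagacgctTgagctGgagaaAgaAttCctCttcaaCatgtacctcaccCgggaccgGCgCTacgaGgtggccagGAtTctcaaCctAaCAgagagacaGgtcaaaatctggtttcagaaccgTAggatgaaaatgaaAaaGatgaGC
HOXC9 differed from HOXB9 at 32 of the 180 bases and HOXD9 at 28. Over the whole transcripts, the longest stretch that HOXB9 shared without a difference was 40 bases with HOXD9, and 20 bases with HOXC9. The longest such stretch between any 2 HOX genes was 62 bases, between HOXB3 and HOXD3. The read length is not given in the sources used here.

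HOXB9 was lower with the circular RNA plasmid. It measured 3.07, 2.82 and 2.75 FPKM (fragments scaled by transcript length and by library total) with vector against 1.66, 1.59 and 1.496 FPKM with circ_0005358. Each library with circ_0005358 lay below each vector library, and the libraries of a group differed by at most 1.12-fold. The mean fell from 2.88 ± 0.172 to 1.58 ± 0.08 FPKM (SD, n = 3 each), a ratio of 0.549. The log2 fold change on the log2(FPKM + 1) scale, which understates changes of low genes, was -0.59 with a 95% interval of -0.75 to -0.42 (limma, adjusted p = 0.00562 over 10295 loci). An exact permutation test (two-sided) reached p = 0.1, below which 3 libraries a group cannot go. HOXB9, a regulator of thoracic and limb patterning, spans bases 48621159 to 48626356 of chromosome 17 in GRCh38, minus strand. Its row holds 1 transcript of 2581 bases, and the smallest common step of the FPKM values implies about 162 to 179 fragments in the vector libraries and 67 to 92 in the others. The call was kept without each single library (limma adjusted p from 0.0220 to 0.0317). It was lost in 2 of 15 alternatives, with the replicate number as a block (adjusted p = 0.0576) and with vector replicate 3 and circ_0005358 replicate 2 left out together (adjusted p = 0.0739).

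Across the HOX genes, 1 of the 16 rows tested was called lower and 0 were called higher (limma). At an unadjusted p under 0.05, 3 were higher. The share of all loci higher at that level was not counted, but it is at least the 6.41% called higher. HOXD13 among the 3 was tested only because all its circ_0005358 libraries exceed 1 FPKM, which no vector library does. Of all 10295 loci tested, 4.96% were called lower and 6.41% higher, 11.4% in all, so the HOX share is near the background. That balance turned to 531 higher and 567 lower once all libraries were brought to an equal FPKM sum. This setting also raised all values against the 1 added before the logarithm. With 0.1 added in place of 1, and no change of sums, 653 were higher and 488 lower. Rows were tested if they had at least 1 FPKM in at least 3 of the 6 libraries, and the other 16 HOX rows did not reach that. The log2 fold change was positive in 7 tested HOX rows and negative in 9, with a median of -0.11 against 0.02 over all loci. The groups did not overlap in 6 of the 16 rows, HOXD13 among them, against 35.8% of all loci. In bulk RNA, fewer cells with a transcript and less of it per cell cannot be told apart.

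**Figure D1:**
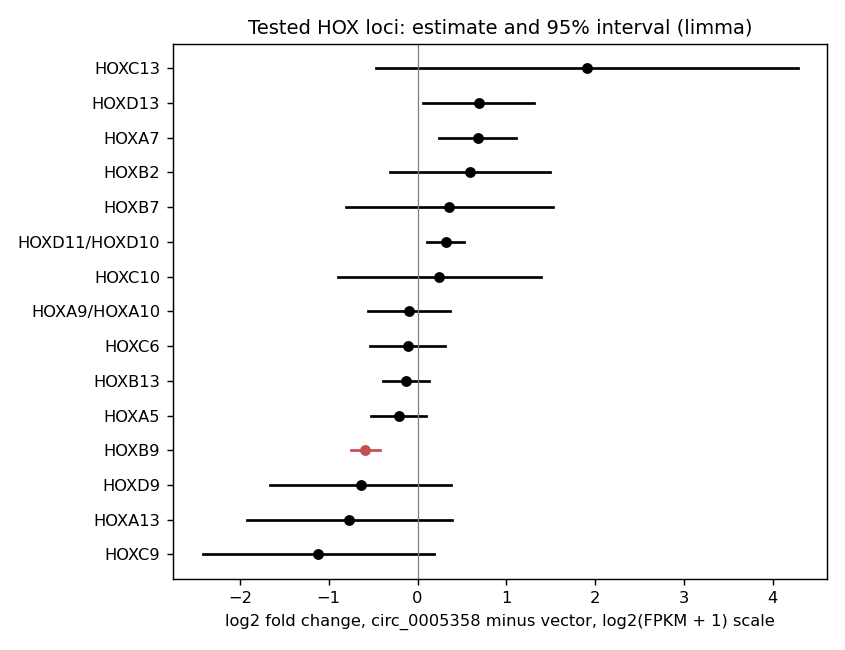
Log2 fold change of 15 of the 16 tested HOX rows (horizontal, circ_0005358 minus vector, log2(FPKM + 1) scale) with limma's 95% interval as a line; red marks a call. HOXB9 at -0.59 is the one call, and the intervals of HOXC13 and HOXC9 are the widest.

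HOXA7 and the joined row of HOXD10 and HOXD11 were higher in each circ_0005358 library than in any vector library, without passing the test. HOXA7, a central gene of its cluster, measured 1.32, 2.35 and 2.36 FPKM with vector against 3.98, 4.05 and 3.25 FPKM with circ_0005358. Its log2 fold change was 0.68 with a 95% interval of 0.24 to 1.11 (limma adjusted p = 0.0668; exact permutation p = 0.1). The row of HOXD10 and HOXD11, which pattern the forearm and the urogenital tract, measured 3.08, 3.70 and 3.01 FPKM with vector against 4.12, 4.40 and 4.37 FPKM with circ_0005358. That row had a log2 fold change of 0.32 with an interval of 0.11 to 0.52 (limma adjusted p = 0.0699). HOXB7, the paralog of HOXA7, had overlapping groups, and the difference between the paralogs was not tested.

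HOXA7 also carries sequence features that set it beside the microRNAs of the clusters. The miR-196 genes lie inside 3 HOX clusters, and miR-196 is known to repress HOX mRNAs. MIR196A1 lies on chromosome 17 from 48632490 to 48632559, MIR196A2 on chromosome 12 from 53991738 to 53991847 and MIR196B on chromosome 7 from 27169480 to 27169563, by GENCODE 29. Their mature RNAs, from RefSeq (GRCh38.p14), share the seed, bases 2 to 8, in capitals:
hsa-miR-196a-5p: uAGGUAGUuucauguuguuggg
hsa-miR-196b-5p: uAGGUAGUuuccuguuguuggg
The match to this seed, ACTACCT on the transcript strand, was searched after the stop codon. It was found in 7 of 39 HOX transcripts (17.9%), against 6.2% of 18466 coding transcripts. Only exact matches were counted, and the shares were not adjusted for the length after the stop codon. The 7 were HOXA5, HOXA7, HOXA9, HOXB6, HOXB7, HOXB13 and HOXC8. HOXA7 held 4 such matches, more than any other HOX transcript, shown 5′ to 3′ with the match in capitals and the number after "at" giving its first base after the stop codon:
HOXA7 at 302: ggcgcgtccaaaatACTACCTa
HOXA7 at 339: cgaggcacccccaaACTACCTa
HOXA7 at 454: aagtgaatctcactACTACCTa
HOXA7 at 472: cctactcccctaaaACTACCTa
The match to the seed of miR-10a, another microRNA of the clusters (ACAGGGT), stood in 3 of 39 HOX transcripts (7.7%), HOXA3 and HOXB3 among them, against 10.8% of all. MicroRNA levels were not analysed here, and a match is a description of the letters only. HOXB9 held neither match.

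HOX promoters are known as CpG-rich stretches on which Polycomb proteins gather. RefSeq windows of 300 bases (GRCh38.p14), which run from upstream of a start to just past it, were matched for 20 of the 39 genes. The 27 windows held a median of 22 CG pairs (0 to 44), against 14.0 over all 35116 windows. They are not spread evenly: HOXC4 and HOXC5 share the same window, HOXA3 has several, and HOXB1 is the only HOXB gene among them. The window of HOXA7 held 31. It is shown because HOXA7 had the separate groups above, and only the 250 bases before the start are given, chr7:27156676-27156925 on the minus strand, with CG in capitals:
HOXA7: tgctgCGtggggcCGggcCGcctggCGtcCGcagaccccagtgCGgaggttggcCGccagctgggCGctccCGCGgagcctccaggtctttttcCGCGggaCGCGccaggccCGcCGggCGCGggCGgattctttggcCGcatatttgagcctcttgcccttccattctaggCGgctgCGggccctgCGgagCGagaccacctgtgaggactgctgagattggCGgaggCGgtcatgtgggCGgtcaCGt
These letters were counted on both strands at once, since CG reads the same on each.

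Ordered by position, the HOX mRNAs of SiHa came more often from genes with high numbers. Of 14 rows with numbers 9 to 13, 10 had a mean of at least 1 FPKM in at least 1 group. It was so for 5 of 10 rows with numbers 4 to 8 and 2 of 8 with numbers 1 to 3. Joined rows went by their lowest number. Of the 10, HOXD13 reached that mean only with circ_0005358, and HOXC9 and HOXD9 only with vector. The highest library value was 11.8 FPKM, in HOXC13. HOXA2 was listed at 0 in all libraries, and HOXA11, HOXB1, HOXD1 and HOXD12 were listed at 0 in at least 1. Summed over all HOX rows, the libraries measured 52.4, 34.1 and 49.5 FPKM with vector against 45.5, 58.3 and 40.2 FPKM with circ_0005358, overlapping groups (exact permutation p = 0.8). The sums of the HOXA, HOXB, HOXC and HOXD rows overlapped as well (exact permutation p = 0.4, 0.8, 0.4 and 0.5, over 4 sums and unadjusted).

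**Figure D2:**
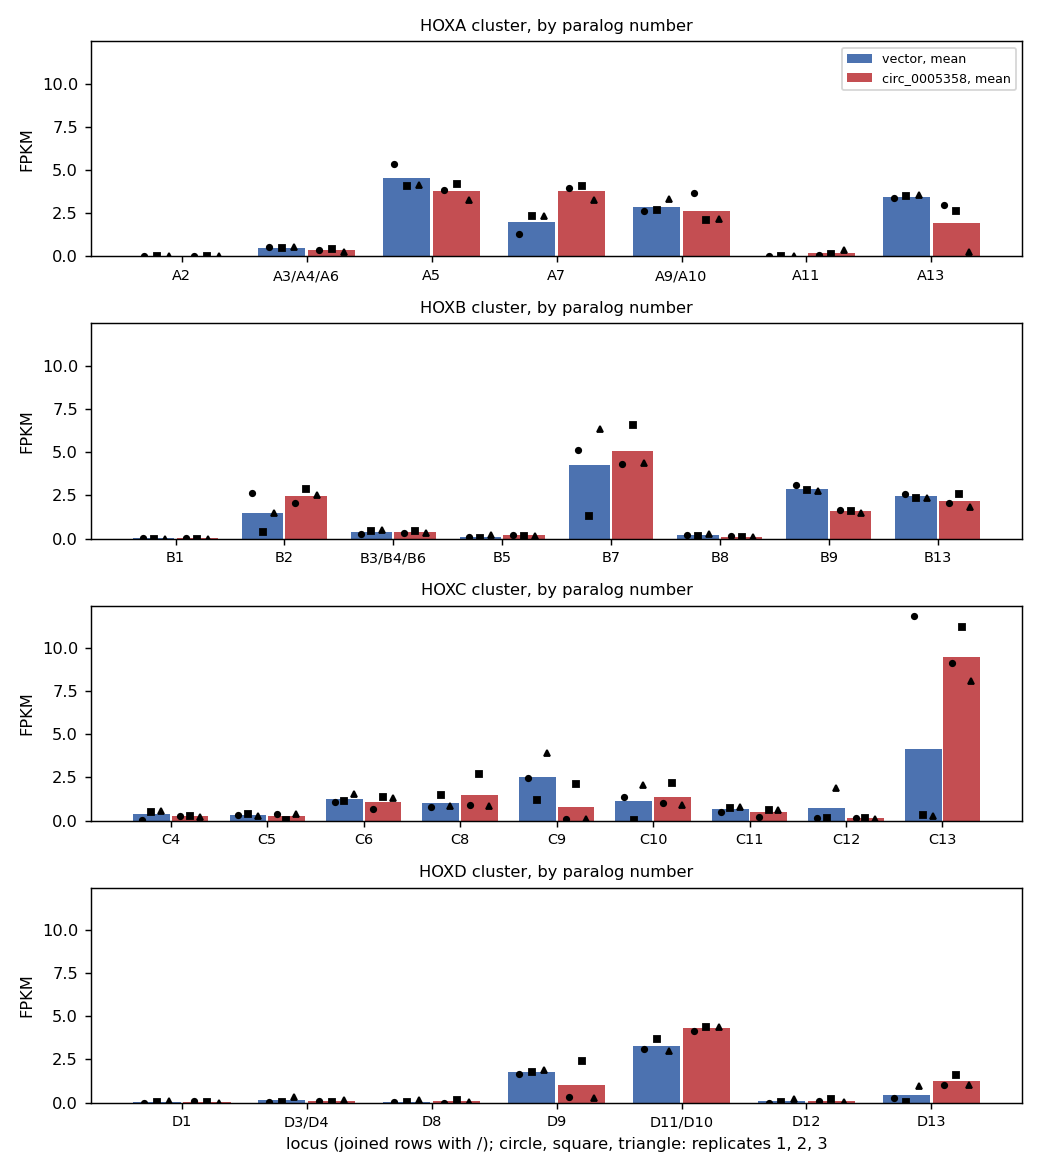
FPKM (vertical, linear, bars from 0) of 31 of the 32 HOX rows by cluster and paralog number; bars are group means and points are the libraries. HOXC13 reaches 11.8 FPKM, and HOXB2 is the one row drawn with a number of 1 to 4 that exceeds 1 FPKM.

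In the HOXA cluster, none of the 5 tested rows passed the threshold (limma), with HOXA7 at an unadjusted p under 0.05. HOXA5, a regulator of lung and mammary tissue, measured 5.33, 4.06 and 4.14 FPKM with vector against 3.84, 4.18 and 3.26 FPKM with circ_0005358. Its log2 fold change was -0.21 (interval -0.52 to 0.10, limma adjusted p = 0.353). The joined row of HOXA9 and HOXA10, which pattern the oviduct and uterus, measured 2.60, 2.66 and 3.32 FPKM with vector against 3.67, 2.10 and 2.19 FPKM with circ_0005358, with no common direction (log2 fold change -0.10, limma adjusted p = 0.774). HOXA13, a gene of the digits, cervix and vagina, measured 3.35, 3.47 and 3.56 FPKM with vector against 2.97, 2.64 and 0.241 FPKM with circ_0005358. Replicate 3 with circ_0005358 stood apart, and the interval of the HOXA13 fold change ran from -1.92 to 0.39 (limma adjusted p = 0.353). Without that library the HOXA13 log2 fold change was -0.23 in place of -0.77.

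In the HOXB cluster, HOXB9 was the one row called of 4 tested. HOXB7, linked in other tumours to growth and invasion, measured 5.09, 1.31 and 6.31 FPKM with vector against 4.32, 6.55 and 4.34 FPKM with circ_0005358. HOXB7 was low in vector replicate 2 alone, and its log2 fold change of 0.35 (interval -0.81 to 1.52, limma adjusted p = 0.676) was -0.16 without that library. In GENCODE 29 the HOXB7 gene runs from 48607227 to 48633572 on the same strand and contains the whole of HOXB9, and how fragments from the shared span were divided is not given in the sources used here. HOXB13, a marker of prostate and hindgut, measured 2.58, 2.36 and 2.35 FPKM with vector against 2.08, 2.57 and 1.80 FPKM with circ_0005358 (log2 fold change -0.13, interval -0.39 to 0.13). HOXB2, a hindbrain gene, measured 2.64, 0.38 and 1.45 FPKM with vector against 2.07, 2.89 and 2.49 FPKM with circ_0005358 (log2 fold change 0.59, interval -0.31 to 1.49). HOXB2 was thus lowest in the same vector replicate 2 as HOXB7. HOXB8 lay below the filter at 0.205, 0.148 and 0.243 FPKM with vector and 0.134, 0.0746 and 0.0990 FPKM with circ_0005358, with groups that did not overlap (exact permutation p = 0.1).

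HOXC13, which had the highest single library value of the HOX rows, exceeded 8 FPKM in 4 libraries and lay below 1 FPKM in 2 vector libraries. HOXC13 acts in hair and nail keratinocytes, where it turns on keratin genes. Its values were 11.8, 0.299 and 0.271 FPKM with vector and 9.14, 11.2 and 8.07 FPKM with circ_0005358. The highest library of all was thus vector replicate 1, and vector replicates 2 and 3 lay far below the other 4. The single transcript of 2423 bases implies about 647, 17 and 15 fragments with vector and 438 to 476 with circ_0005358. HOXC13 had a log2 fold change of 1.91 and an interval of -0.47 to 4.28 (limma adjusted p = 0.269; exact permutation p = 0.4). Without vector replicate 1 it was 3.02 and passed the threshold (limma adjusted p = 0.00339), so that library decides the call. HOXC13 then reached the filter only through its circ_0005358 libraries, so this value is a description. HOXC13-AS, an antisense transcript that overlaps HOXC13 by 879 bases on GRCh38, measured 0.85, 4.66 and 1.44 FPKM with vector against 3.35, 1.41 and 3.45 FPKM with circ_0005358. Whether the libraries kept strand is not given in the sources used here, so reads of the overlap cannot be told apart.

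Other HOXC rows and HOXD9 also differed severalfold between libraries of the same group. HOXC9 measured 2.49, 1.21 and 3.89 FPKM with vector against 0.0783, 2.11 and 0.0882 FPKM with circ_0005358. HOXD9, its paralog, measured 1.65, 1.76 and 1.92 FPKM with vector against 0.314, 2.43 and 0.247 FPKM with circ_0005358. Both were low in circ_0005358 replicates 1 and 3 and high in replicate 2. The implied depth of that library was 71.1% of the deepest, and its part in these values was not tested. The log2 fold change was -1.12 for HOXC9 (interval -2.42 to 0.18) and -0.64 for HOXD9 (interval -1.66 to 0.38), with limma adjusted p = 0.237 and 0.381. Without circ_0005358 replicate 2 the HOXD9 value was -1.12 and passed the threshold (limma adjusted p = 0.00664). That of HOXC9 was -1.63 and did not pass (limma adjusted p = 0.0768). Both rows then reached the filter only through their vector libraries, so these values are a description. HOXC10 measured 1.39, 0.0127 and 2.05 FPKM with vector against 1.02, 2.16 and 0.904 FPKM with circ_0005358, so it was nearly absent from vector replicate 2. Its log2 fold change of 0.24 (interval -0.90 to 1.39) was -0.23 without that library.

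HOXD13, a gene of the digits and the urogenital tract, measured 0.274, 0.0491 and 0.937 FPKM with vector against 1.04, 1.61 and 1.03 FPKM with circ_0005358. HOXD13 reached the filter only through its circ_0005358 libraries, so its separate groups and its log2 fold change of 0.69 (limma adjusted p = 0.151) are a description. Vector replicate 3 lay close to the circ_0005358 libraries. HOXC6 measured 1.09, 1.16 and 1.51 FPKM with vector against 0.649, 1.38 and 1.28 FPKM with circ_0005358 (log2 fold change -0.11, interval -0.53 to 0.31). HOXC8, just below the filter, measured 0.800, 1.48 and 0.854 FPKM with vector against 0.900, 2.70 and 0.843 FPKM with circ_0005358 (exact permutation p = 0.6). Replicate 2 was the highest library of HOXC8 in both groups.

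Several HOX rows varied widely within a group. In 7 of the 16 tested rows, the highest library of a group was at least 5 times the lowest, against 5.72% of tested loci. Among tested rows with a mean of 1 to 10 FPKM, it was so in 6 of 15 HOX rows against 6.25% of all. The 7 were HOXA13, HOXB2, HOXC9, HOXC10, HOXC13, HOXD9 and HOXD13. HOXD13 has a mean below that range and was tested only through its circ_0005358 libraries. Vector replicate 2 was the lowest vector library in HOXB2, HOXC9, HOXC10 and HOXD13, vector replicates 2 and 3 were both low in HOXC13, and circ_0005358 replicate 3 or 1 was the low one in HOXA13, HOXC9 and HOXD9. This count was made after the values were seen, and no test was run on it. Vector replicate 2 had the largest implied depth, and the part of depth in this spread was not tested.

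**Figure D3:**
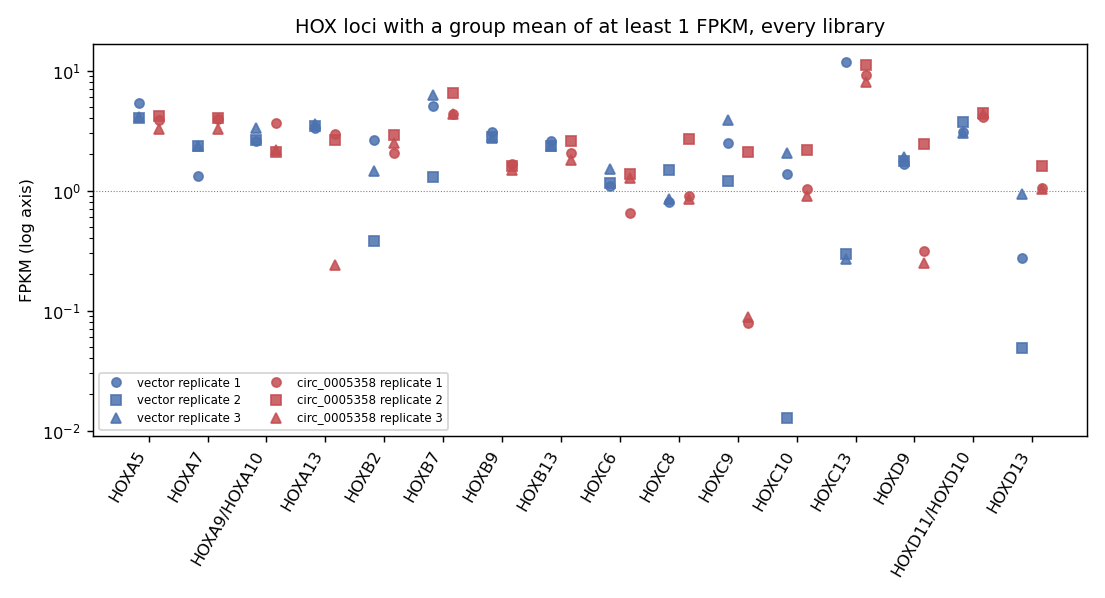
FPKM (vertical, log axis) of 16 of the 17 HOX rows with a group mean of at least 1 FPKM in each of the 6 libraries; blue is vector, red is circ_0005358, the shape gives the replicate and the dotted line marks 1 FPKM. HOXB9 forms tight separate groups, while HOXC10, HOXC13, HOXC9 and HOXD9 scatter between libraries of the same group.

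The 15 rows with no group mean of 1 FPKM had library values of at most 1.89 FPKM, in HOXC12. HOXC12 measured 0.171, 0.125 and 1.89 FPKM with vector and from 0.114 to 0.174 FPKM with circ_0005358, so vector replicate 3 alone was high. HOXC11 ranged from 0.219 to 0.810 FPKM and HOXC4 and HOXC5 from 0.0339 to 0.531 FPKM, with overlapping groups. The joined row of HOXA3, HOXA4 and HOXA6 measured 0.531, 0.463 and 0.524 FPKM with vector against 0.346, 0.440 and 0.262 FPKM with circ_0005358, without overlap. HOXA11, a uterine gene, was at 0, 0 and 0.0196 FPKM with vector against 0.0599, 0.123 and 0.359 FPKM with circ_0005358, values too low to be tested. The joined rows of HOXB3, HOXB4 and HOXB6 and of HOXD3 and HOXD4, and those of HOXB1, HOXB5, HOXD1, HOXD8 and HOXD12, had overlapping groups and stayed at or below 0.521 FPKM. Over all 32 rows the groups did not overlap in 9. The share over all rows of the table was not counted, only that of the tested loci (35.8%), so no comparison is made.

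Of 28 names of noncoding RNAs of the clusters listed, 16 had a row of their own, 2 stood in a joined row and 10 had none, among the latter all the microRNAs. HOXC13-AS alone was tested and did not pass (limma adjusted p = 0.748, with 0 at an unadjusted p under 0.05). HOTAIR, the HOXC transcript known for its link to Polycomb and metastasis, measured 0.256, 0.664 and 0.408 FPKM with vector against 0.931, 1.07 and 0.389 FPKM with circ_0005358, with overlapping groups (exact permutation p = 0.3). HOTTIP, at the far end of the HOXA cluster, did not exceed 0.00456 FPKM.

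Among cofactors that bind DNA with HOX proteins, 1 of 7 tested members rose and 0 fell, near the 11.4% called over all loci, with a median log2 fold change of 0.14 against 0.02 over all loci. MEIS3 measured 1.67, 1.96 and 1.84 FPKM with vector against 3.12, 3.20 and 2.88 FPKM with circ_0005358 (log2 fold change 0.53, limma adjusted p = 0.0106). That call was lost only with the replicate block (adjusted p = 0.0778) and with the same pair of libraries left out (adjusted p = 0.108), among 15 alternatives. MEIS1 and MEIS2, the better known partners, lay below 1 FPKM in all libraries.

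None of 29 tested Polycomb members passed (limma, 0 higher and 0 lower), with a median of -0.02. Of them 4 had an unadjusted p under 0.05. The share over all loci at that level was not counted, but it is at least the 11.4% called after adjustment. EZH2, the methyltransferase, averaged 13.7 and 16.6 FPKM (limma adjusted p = 0.0993), and RYBP, a subunit of complex 1, averaged 20.5 and 17.5 FPKM (adjusted p = 0.0517). Of 21 members of the MLL, DOT1L and demethylase list, WDR5 rose and 0 fell, against 11.4% called over all loci, with a median of 0.04. WDR5, a scaffold of the MLL complexes, measured 22.2, 22.1 and 22.7 FPKM with vector against 29.3, 26.3 and 29.2 FPKM with circ_0005358 (log2 fold change 0.32, limma adjusted p = 0.0282). The WDR5 call was lost in 9 of 16 alternatives, among them with vector replicate 1, 2 or 3 left out (adjusted p = 0.0995, 0.101 and 0.0787) or circ_0005358 replicate 1 or 3 (0.0786 and 0.0934). Of 10 genes of cluster architecture, YY1 alone rose (11.4% of all loci were called), from 3.16, 5.43 and 5.72 FPKM to 13.4, 13.6 and 11.6 FPKM (log2 fold change 1.29, limma adjusted p = 0.0168), with a list median of 0.05. YY1, a DNA-binding protein of promoter loops, lost its call on leaving out vector replicate 2 (adjusted p = 0.0503) or circ_0005358 replicate 1, 2 or 3 (0.0623, 0.0618 and 0.0544). CTCF, which insulates domains inside the clusters, averaged 22.2 and 23.7 FPKM (limma adjusted p = 0.288).

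Retinoic acid is the classic inducer of HOX genes, and 4 of the 8 tested members of its list changed, 3 lower and 1 higher, against 11.4% of all loci. The row of ALDH1A3, an enzyme that makes retinoic acid, fell from 29.1, 29.6 and 27.5 FPKM to 3.84, 10.3 and 4.91 FPKM (log2 fold change -2.12, limma adjusted p = 0.0147), and it joins names of clones. CYP26B1, which degrades retinoic acid, fell from 1.51, 1.71 and 1.88 FPKM to 0.993, 1.11 and 0.944 FPKM (log2 fold change -0.42, limma adjusted p = 0.0293). DHRS3, which reduces retinaldehyde, fell from 13.5, 13.7 and 14.5 FPKM to 8.35, 10.4 and 9.35 FPKM (log2 fold change -0.52, limma adjusted p = 0.0218). RXRA, the partner of the retinoic acid receptors, rose from 1.41, 1.82 and 1.63 FPKM to 3.46, 3.04 and 2.79 FPKM (log2 fold change 0.64, limma adjusted p = 0.0140). The genes that fell thus include both a maker and a degrader of retinoic acid, and the list median was -0.01. Leaving out single libraries ended the CYP26B1 call in each of 6 cases (adjusted p from 0.0510 to 0.101). It ended those of ALDH1A3 and DHRS3 on leaving out vector replicate 1, 2 or 3 (0.0595, 0.0631 and 0.0554; 0.0705, 0.0756 and 0.0761) and circ_0005358 replicate 3 (0.0605 and 0.0771), and that of RXRA with either vector replicate 1 or 3 left out (0.0514 and 0.0542). The replicate block ended all 4 calls (adjusted p from 0.0631 to 0.122).

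**Figure D4:**
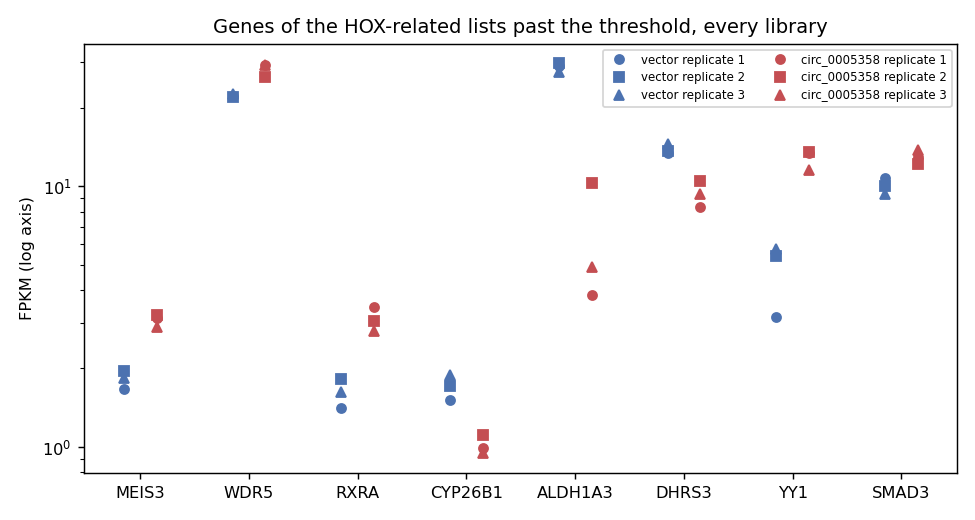
FPKM (vertical, log axis) in each library of the 8 genes from the lists of HOX cofactors, MLL members, retinoic acid, architecture and HOX partners that passed the threshold; blue is vector, red is circ_0005358 and the shape gives the replicate. Groups are separate for each of these genes, and YY1 and ALDH1A3 differ most.

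Of 7 partners and modulators of HOX proteins, SMAD3 alone rose (against 11.4% called over all loci), from 10.8, 10.1 and 9.36 FPKM to 12.9, 12.2 and 13.8 FPKM (log2 fold change 0.34, limma adjusted p = 0.0480), a call lost in 13 of 16 alternatives, without each single library among them (adjusted p from 0.0717 to 0.140). None of 21 tested genes that flank the clusters passed (limma, 0 higher and 0 lower), and their median was 0.08. An unadjusted p under 0.05 was seen for 6 of them, and the share over all loci was not counted but is at least the 11.4% called. The smallest p-values there were those of ATP5G3 (log2 fold change 0.44, limma adjusted p = 0.125) and HNRNPA1 (0.42, adjusted p = 0.136), and HNRNPA1 is uncertain because the genome holds near-identical copies of it. CDX, ParaHox and EVX genes, relatives and inducers of HOX genes, did not reach the filter, and GBX2 had their highest group mean, 0.502 FPKM.

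The line's markers differed between the groups as well. Of 6 tested epithelial markers 5 fell, against 4.96% of all loci, and the 8 listed summed to between 1253 and 1323 FPKM with vector against 617 and 695 FPKM with circ_0005358, led by KRT17, whose own level is uncertain because of near-identical copies. KRT5 in its own row and TP63 did not exceed 0.0414 and 0.254 FPKM. Leukocyte markers summed to between 10.4 and 13.3 FPKM with vector against 1.45 and 16.4 FPKM with circ_0005358, nearly all from CD14, with PTPRC at most at 0.0605 FPKM. Fibroblast markers summed to 7.05 to 10.5 and 2.65 to 3.11 FPKM, led by LUM, and endothelial, erythroid and neural markers to at most 0.599, 0.555 and 0.227 FPKM. The part of these shifts in the HOXB9 result was not tested.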

How the data were processed

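The authors deposited 1 table of FPKM values per locus for 6 libraries, per the file headers. Trimmomatic, HISAT2 and the build hg19 were used, per the submitters' processing notes; the program behind the FPKM values, its annotation and the versions were not given there. Loci with at least 1 FPKM in at least 3 libraries (10295) were tested with limma 3.58.1 in R 4.3.3 on log2(FPKM + 1) as a two-sided test whose prior variance followed the mean level. Adjustment was by Benjamini-Hochberg over all of them, with a threshold of 0.05. The code was checked on simulated data. Read counts are not in the table. The most frequent smallest step of FPKM times length, on loci with 1 transcript, gave relative depths of 71.1% or more of the deepest library and the implied fragments, which are estimates without interval. Vector replicate 3 listed 27803 loci above 0, against 23227 to 23834 in the other libraries, and the cause of that difference was not tested.

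The HOX rows and the other lists were chosen with earlier results of these data known. Each HOX row with a group mean of at least 1 FPKM is given in every library, except 1 that, with 1 other gene and 1 sequence, is not reported here. Of each other list, up to 4 members past the threshold are named, or up to 2 with the smallest p, while HOTAIR, HOTTIP, MEIS1, MEIS2 and CTCF were picked with their values in view. A listed symbol was read from its single-name row with the highest mean. Alternatives were other pseudocounts (0.1 and 0.5), filters, scalings, no variance trend, a replicate block and leaving out libraries.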

Additional observations from a re-analysis of the deposited data

How the results depend on the processing

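The count of 1171 loci past the threshold was 591 with no filter, 485 to 761 without single libraries, 259 with the replicate block and 198 with vector replicate 3 and circ_0005358 replicate 2 left out together, a setting chosen after the data were seen. HOX rows called lower numbered 0, in place of 1, with the block, with that pair left out and with FPKM of at least 5 in 3 libraries, which leaves 2 HOX rows and does not hold HOXB9. Without single libraries 1 to 2 were called lower and 0 to 1 higher. The calls added in this way, HOXD9 lower and HOXC13 higher, reached the filter only through the group where the gene was high. The HOXB9 log2 fold change stayed between -0.84 and -0.55, the former with equal sums, which also raise the values against the pseudocount. The sign turned for HOXB7 (-0.16 to 0.67 without single libraries), HOXC10 (-0.23 to 0.57), HOXC6 (-0.21 to 0.05) and the row of HOXA9 and HOXA10 (-0.29 to 0.01, and 0.09 without the pair), none of them called. The median of the HOX rows was 1.13 under the filter at 5 FPKM. The cause of these changes was not tested, and some of the settings also hold fewer samples or loci. The replicate numbers were not taken to pair the samples: same-numbered libraries of the 2 groups deviated together at correlations of 0.06, 0.05 and 0.08, each the highest for its libraries. Besides HOXB9, the block ended the 8 calls among the other lists (adjusted p from 0.0631 to 0.161). With no filter WDR5 (0.084), CYP26B1 (0.116), DHRS3 (0.0592) and SMAD3 (0.129) lost theirs, and with the pair left out MEIS3 (0.108), WDR5 (0.0723), RXRA (0.134), DHRS3 (0.0801), YY1 (0.113) and SMAD3 (0.139) did.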
